A study of Mus musculus with 2 samples.

Results

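Transcripts of 10 proteins that neutrophils store in their specific and gelatinase granules were followed in single cells from the inflamed mouse eye. The genes were chosen by symbol, as Ltf, Ngp, Lcn2, Chil3, Cd177, Retnlg, Mmp8, Mmp9, Pglyrp1 and Wfdc21, and each symbol matched 1 of the 31053 gene rows. There were 2 libraries of 10x 3′ counts, 1 from C57BL/6 mice that received antiserum to the chemokine receptor CXCR2 (aCXCR2) and 1 from C57BL/6 mice that received normal serum (NRS). Both groups had zymosan, a yeast cell wall preparation that draws in myeloid cells, placed inside the eye. In both, cells came from the vitreous and a rinse of the retina and were enriched with magnetic beads against Ly6G. The sources used here do not say how many mice each library pooled. With 1 library per group, no difference between the groups has a replicate check, so no test was run, and every interval covers the counting of unique molecular identifiers (UMIs) alone, at 95%.

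A developing neutrophil makes its granule proteins in waves. Azurophil proteins come first, specific granule proteins such as lactoferrin and neutrophilic granule protein follow at the myelocyte stage in bone marrow, and gelatinase granule proteins such as MMP9 come later still. A mature neutrophil carries the finished proteins and ordinarily few of the early transcripts, and it releases gelatinase granules more readily than specific granules when it is stimulated.

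The files held 5551 barcodes and 85748842 UMIs in the aCXCR2 library and 7314 barcodes and 61386486 UMIs in the NRS library. A barcode was kept if it had 500 UMIs or more, 200 genes or more and no more than 10% of its UMIs from mitochondrial genes, which left 4826 aCXCR2 and 5655 NRS barcodes. Neutrophil-like cells were named from markers without the 10 genes or the granule genes of the lists described below. They numbered 2631 in the aCXCR2 library and 3499 in the NRS library, with medians of 7689 and 4653 UMIs. All 16 neutrophil markers were detected in them in both libraries. Levels are in CPM, UMI counts over all UMIs of the same cell class, cluster or barcode group in its library, scaled to a common total. Ly6g, the target of the beads, stood at 119 CPM in aCXCR2 neutrophil-like cells and 11.8 CPM in NRS neutrophil-like cells. Markers of macrophages summed to 1342 CPM in aCXCR2 neutrophil-like cells and 1833 CPM in NRS ones, with none of 15 at 0 in either library. Photoreceptor markers summed to 89.6 CPM in aCXCR2 and 838 CPM in NRS neutrophil-like cells, with 1 of 10 at 0 in aCXCR2 and none in NRS. Erythroid markers summed to 876 CPM in aCXCR2 and 117 CPM in NRS neutrophil-like cells, with none of 5 at 0. The part of these in the results was not tested. The libraries shared 53 barcode sequences among kept cells, and 3 aCXCR2 and 5 NRS neutrophil-like cells were among them. Without these barcodes no log2 ratio of the 10 genes changed direction.

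The promoters of 3 genes are shown because Ltf moved downward under aCXCR2 and Ngp and Retnlg moved furthest upward. Of the 10 genes, 8 had an entry in the RefSeq table (build GRCm38.p6). Each window holds the 250 bases before the annotated start, on the plus strand in these 3 cases. Capitals mark matches to TTNNGNAA, a pattern of the C/EBP family of myeloid transcription factors, and to its reverse complement TTNCNNAA, which may overlap. The windows lie at chr9:111019042-111019291 for Ltf, chr9:110419558-110419807 for Ngp and chr16:48872358-48872607 for Retnlg.
Ltf: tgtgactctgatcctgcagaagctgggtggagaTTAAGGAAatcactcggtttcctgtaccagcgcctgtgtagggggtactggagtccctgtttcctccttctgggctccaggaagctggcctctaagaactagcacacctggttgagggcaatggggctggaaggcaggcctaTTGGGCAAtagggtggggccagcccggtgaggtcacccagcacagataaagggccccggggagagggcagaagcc
Ngp: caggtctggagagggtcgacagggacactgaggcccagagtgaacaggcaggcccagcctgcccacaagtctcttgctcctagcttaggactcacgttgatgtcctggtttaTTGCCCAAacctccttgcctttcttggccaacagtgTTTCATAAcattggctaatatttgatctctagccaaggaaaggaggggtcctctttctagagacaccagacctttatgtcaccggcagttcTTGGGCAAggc
Retnlg: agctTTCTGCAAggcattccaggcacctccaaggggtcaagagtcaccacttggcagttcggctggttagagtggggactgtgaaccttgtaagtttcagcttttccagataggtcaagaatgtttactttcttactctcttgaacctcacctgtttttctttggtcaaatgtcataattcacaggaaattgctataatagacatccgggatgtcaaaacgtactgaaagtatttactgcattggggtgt
Ltf had 2 matches, Ngp 3 and Retnlg 1. Of the 8 genes with an entry, 7 had a match, and so did 36.8% of all 32851 promoter windows of this length. Ltf and Ngp both carry the letters TTGGGCAA, although their transcripts moved in opposite directions. A match describes letters in the window only.

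The 10 genes did not move as one group. Over all neutrophil-like cells, Ngp, Retnlg, Cd177, Mmp8 and Pglyrp1 were at least 2-fold higher under aCXCR2, Lcn2, Wfdc21 and Mmp9 were higher by less, Chil3 differed by less than its counting error, and Ltf alone was lower. Of 3202 genes with at least 50 CPM in either library, 131 (4.09%) passed 2-fold upward under aCXCR2 and 630 (19.7%) passed it downward. Of the 10 genes, taken without that minimum, 5 passed 2-fold upward and 1 passed it downward. Cd177, among those 5, and Chil3 stayed under 50 CPM in both libraries, so neither is among the 3202 genes. The median of all these genes lay at a log2 ratio of -0.49 and that of the 10 genes, at the 10 CPM minimum used for gene lists, at 1.20. S100a8, an abundant neutrophil alarmin, stood at 76241 CPM in aCXCR2 and 16761 CPM in NRS neutrophil-like cells and so takes part of the total that every CPM is divided by. Trimmed mean scaling (TMM) raised every log2 ratio by 0.72. After it, 508 genes (15.9%) passed 2-fold upward and 75 (2.34%) downward.

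**Figure D1:**
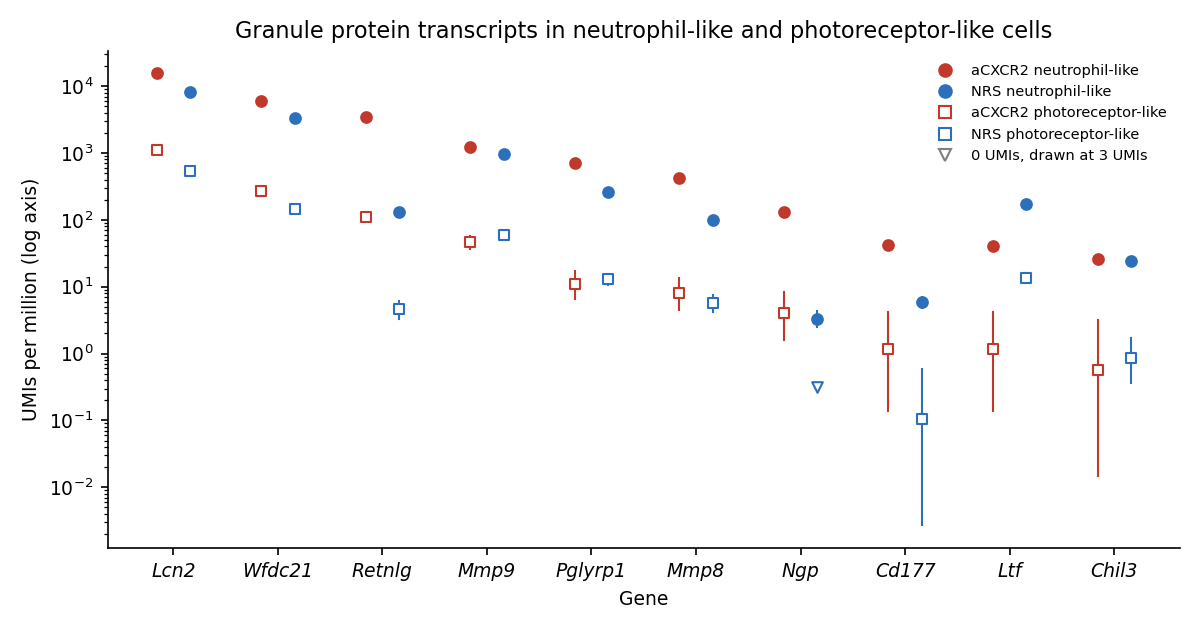
CPM (log axis) of the 10 genes in neutrophil-like cells (filled circles) and photoreceptor-like cells (open squares), aCXCR2 left of NRS for each gene; lines are exact Poisson intervals, and a triangle marks 0 UMIs drawn at the level of 3 UMIs. Ltf is the gene with the lower circle in aCXCR2, at 40.3 CPM against 173 CPM in NRS.

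Among the specific granule genes, Ltf encodes lactoferrin, an iron-binding protein that withholds iron from microbes. It stood at 40.3 CPM (interval 37.8 to 43.0, 941 UMIs) in aCXCR2 neutrophil-like cells and at 173 CPM (167 to 179, 3024 UMIs) in NRS neutrophil-like cells. Its log2 ratio was -2.10 (interval -2.21 to -1.99), or 4.28-fold lower, and -1.38 after TMM scaling. Ngp encodes a cystatin-like protein of myeloid precursors. It stood at 133 CPM (128 to 138, 3105 UMIs) in aCXCR2 and at 3.31 CPM (2.52 to 4.28, 58 UMIs) in NRS neutrophil-like cells, a log2 ratio of 5.33 (4.95 to 5.73). These are 2 genes of the same granule and chromosome that moved in opposite directions.

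Lcn2 encodes lipocalin 2, which captures bacterial siderophores. It was the most abundant of the 10 genes, at 15506 CPM in aCXCR2 and 8070 CPM in NRS neutrophil-like cells, a log2 ratio of 0.94 (0.93 to 0.95). Cd177, a surface glycoprotein also held in granule membranes, stood at 42.4 CPM in aCXCR2 and 5.88 CPM in NRS neutrophil-like cells, a log2 ratio of 2.85 (2.56 to 3.16). Both were higher, Cd177 by the wider margin and from a far lower level. Chil3, a chitinase-like lectin (Ym1), stood at 25.8 CPM in aCXCR2 and 24.3 CPM in NRS neutrophil-like cells, with a log2 ratio of 0.08 (-0.10 to 0.27). Its close relative Chil4 had 0 UMIs in the neutrophil-like cells of both libraries.

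Among the genes tied to gelatinase or mixed granules, Retnlg, a resistin-like secreted protein abundant in mouse neutrophils, moved most. It stood at 3494 CPM (81570 UMIs) in aCXCR2 and 129 CPM (2263 UMIs) in NRS neutrophil-like cells, a log2 ratio of 4.76 (4.70 to 4.82) or 27.0-fold. Mmp8, neutrophil collagenase, stood at 422 CPM in aCXCR2 and 98.1 CPM in NRS neutrophil-like cells, a log2 ratio of 2.11. Mmp9, gelatinase B, stood at 1251 CPM in aCXCR2 and 953 CPM in NRS neutrophil-like cells, a log2 ratio of 0.39 (0.36 to 0.42). The proteases of this group thus differed in size of change, and Mmp9 was only 1.31-fold higher. Pglyrp1, a peptidoglycan-binding antibacterial protein, stood at 713 CPM in aCXCR2 and 260 CPM in NRS neutrophil-like cells, a log2 ratio of 1.45. Wfdc21, a protein with a WAP domain, stood at 6082 CPM in aCXCR2 and 3323 CPM in NRS neutrophil-like cells, a log2 ratio of 0.87. Together the 10 genes took 27709 CPM of aCXCR2 and 13040 CPM of NRS neutrophil-like UMIs, and Lcn2 alone took 56.0% of that in aCXCR2 and 61.9% in NRS. By level Ltf was the ninth of the 10 in aCXCR2 and the fifth in NRS.

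Free RNA was read from photoreceptor-like cells, a type not known for granule proteins (275 aCXCR2 cells, median 4801 UMIs, and 864 NRS cells, median 4128 UMIs). Retnlg stood at 111 CPM in aCXCR2 photoreceptor-like cells and 4.59 CPM in NRS ones, so the aCXCR2 background is close to the whole NRS neutrophil-like level. Ltf stood at 1.15 CPM in aCXCR2 and 13.4 CPM in NRS photoreceptor-like cells. Subtracting the photoreceptor-like level changed no gene's direction, and the Ltf log2 ratio became -2.02.

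Cells were thinned to an equal depth of 1000 UMIs, which left 2587 aCXCR2 and 3355 NRS neutrophil-like cells. The share of cells with a UMI was higher in aCXCR2 for 9 of the 10 genes and lower for Ltf. For Chil3 the intervals overlap, 1.24 to 2.28% in aCXCR2 and 0.878 to 1.65% in NRS. No share over all genes at this depth is given here, so the count is not read as particular to these genes. At that depth, Ltf was seen in 1.97% of aCXCR2 cells (exact binomial interval 1.47 to 2.58%) and 11.4% of NRS cells (10.4 to 12.5%). Unthinned, the Ltf shares were 8.51% in aCXCR2 and 25.1% in NRS. Ltf in thinned photoreceptor-like cells was seen in 0 of 222 aCXCR2 cells, which allows a share of up to 1.35%, and in 1.30% of 768 NRS cells. Ltf was therefore less widely seen under aCXCR2 than under NRS, and above background in NRS.

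Ngp was seen in 3.79% of thinned aCXCR2 cells and 0.387% of thinned NRS cells. The NRS share is no higher than the 0.391% that 0 of 768 NRS photoreceptor-like cells allows, although its 3.31 CPM stood above the 0.320 CPM that their 0 UMIs allow. Retnlg was seen in 51.8% of thinned aCXCR2 cells and 6.08% of thinned NRS cells, against 5.41% of aCXCR2 and 0.130% of NRS photoreceptor-like cells. A Retnlg UMI was thus about as common as its absence in aCXCR2 cells, and uncommon in NRS cells. Mmp9 was seen in 55.2% of aCXCR2 and 42.9% of NRS cells, Pglyrp1 in 42.6% of aCXCR2 and 18.5% of NRS cells, and Mmp8 in 24.9% of aCXCR2 and 7.03% of NRS cells. Lcn2 was seen in 92.3% of aCXCR2 and 75.4% of NRS cells, and Wfdc21 in 88.2% of aCXCR2 and 62.4% of NRS cells. Lcn2 was also seen in 14.4% of aCXCR2 and 18.1% of NRS photoreceptor-like cells, the highest background of the set. Chil3 (1.70% of aCXCR2 and 1.22% of NRS cells) and Cd177 (3.94% of aCXCR2 and 0.656% of NRS cells) were rare. The median thinned cell held UMIs of 4 of the 10 genes in aCXCR2 and of 2 in NRS, and they made up 2.4% of its UMIs in aCXCR2 and 0.8% in NRS.

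Low shares can hide a few very rich cells, and for Ngp and Ltf they did. In the aCXCR2 library 2 of the 2631 neutrophil-like cells held 54.1% of the Ngp UMIs, 49.9% of the Ltf UMIs and 59.7% of the UMIs of Camp, the cathelicidin precursor stored beside them. The first of these cells had 869 Ngp, 202 Ltf, 363 Camp, 277 Retnlg and 56 Chil3 UMIs among 18826. The second had 811 Ngp, 268 Ltf, 152 Camp, 395 Retnlg and 38 Chil3 UMIs among 20116. Both therefore carried Ngp, Ltf, Camp, Retnlg and Chil3 at once. Both had 0 UMIs of Mpo and Elane, the azurophil enzymes, and 0 of the cycling genes Mki67 and Top2a. Their totals exceed the aCXCR2 neutrophil-like median of 7689 UMIs, and whether they are doublets was not tested. No NRS neutrophil-like cell had 100 UMIs of Ltf, Ngp or Camp.

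In the NRS library Ltf was spread thinly instead. Its highest cell had 32 UMIs, and 151 cells held 50% of its UMIs, against 3 cells in aCXCR2. At least 10 Ltf UMIs were found in 6 aCXCR2 cells and 61 NRS cells. At least 10 Ngp UMIs were found in 39 aCXCR2 cells, 3 of them among those 6, and in 2 NRS cells, too few to read an overlap with Ltf. Lcn2 and Mmp9 showed no such difference, with 50% of their UMIs in 407 and 404 cells in aCXCR2 and in 389 and 388 cells in NRS. Chil3 was held by few cells in both libraries, 50% of it in 13 aCXCR2 and 10 NRS cells.

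Without the 2 rich cells, a comparison chosen after seeing the data, Ltf was at 20.2 CPM in aCXCR2 against 173 CPM in NRS, and its log2 ratio went further down, to -3.10. Ngp was then at 61.1 CPM in aCXCR2 against 3.31 CPM in NRS, a log2 ratio of 4.21. Camp was at 37.0 CPM in aCXCR2 and 54.9 CPM in NRS with all cells, and at 14.9 CPM in aCXCR2 without the 2. For Ltf the further fall was fixed in advance, since leaving Ltf-rich cells out of aCXCR2 alone can only lower its ratio. The direction of Ngp does not rest on those cells, although about 50% of the aCXCR2 amounts of Ltf and Ngp do. Retnlg hardly moved, at 3471 CPM in aCXCR2 without them.

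**Figure D2:**
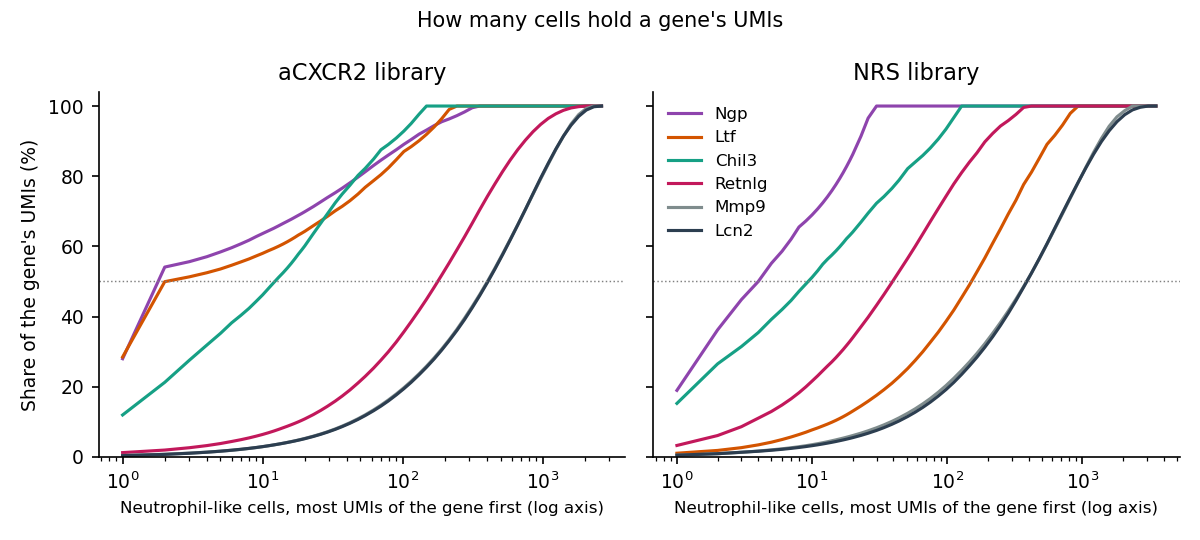
Cumulative share of a gene's UMIs (%, y axis) against the number of neutrophil-like cells counted from the richest down (log axis), aCXCR2 left and NRS right; the dotted line marks 50%. In aCXCR2, 2 cells hold 54.1% of the Ngp and 49.9% of the Ltf UMIs, whereas in NRS Ltf needs 151 cells and Lcn2 needs 389.

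The neutrophil-like cells fell into 9 clusters, found without the granule genes, whose mix differed greatly between the libraries. A cluster led by Itpr2, Ctsk and Gdf15, with a weak neutrophil score (0.591), held 4.75% of aCXCR2 and 37.6% of NRS neutrophil-like cells. In NRS it held 56.4% of the Ltf UMIs. A cluster led by Car4, Orm1 and Qsox1 held 29.9% of aCXCR2 and 2.77% of NRS cells. Levels were therefore also compared inside the 6 clusters with at least 50 cells in both libraries.

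Retnlg was at least 2-fold higher in aCXCR2 in 6 of these 6 clusters, with log2 ratios between 3.41 and 4.95. It was highest in the cluster led by Cxcr2 and Hdc, at 12671 CPM in aCXCR2 and 1189 CPM in NRS, and that cluster held 71.9% of all NRS neutrophil-like Retnlg UMIs. In the Itpr2 cluster it was at 206 CPM in aCXCR2 and 6.69 CPM (4.93 to 8.87) in NRS. The photoreceptor-like background was 111 CPM in aCXCR2 and 4.59 CPM (3.32 to 6.18) in NRS, so in this cluster the NRS level was not apart from background. In the other 5 clusters Retnlg stood above background in both libraries, and the difference in Retnlg is read from those 5. Mmp8 (log2 ratios 0.86 to 2.08), Cd177 (0.95 to 3.16), Pglyrp1 (0.30 to 0.58) and Wfdc21 (0.07 to 1.89) were also higher in 6 of 6, although the intervals of Cd177 in 2 clusters and of Pglyrp1 in 1 spanned 0. Pglyrp1 did not reach 2-fold in any shared cluster before TMM scaling, against a log2 ratio of 1.45 in the sum over cells.

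Mmp9 was lower in aCXCR2 in 5 of the 6 clusters, with log2 ratios from -0.45 to 0.20, although its sum over cells was higher. With the 6 clusters weighted alike, a scheme chosen after seeing the data, its log2 ratio was -0.19. In NRS cells its level ran from 483 CPM in the Itpr2 cluster to 2104 CPM in the Car4 cluster. Lcn2 was higher in 5 of 6 clusters and lower in the Car4 cluster, at 14843 CPM in aCXCR2 and 19421 CPM in NRS. TMM scaling over all neutrophil-like cells adds 0.72 to each log2 ratio, and with that shift Mmp9 and Lcn2 would be higher in all 6 clusters. TMM factors were not computed inside each cluster.

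Ltf was at least 2-fold lower in aCXCR2 in 5 of the 6 clusters, and in 4 with the same TMM shift added. The log2 ratio of Ltf in the cluster led by Hspa1a, Prok2 and Hcar2 then became -0.56. In the Itpr2 cluster it stood at 41.3 CPM in aCXCR2 and 238 CPM in NRS, and in the Hspa1a cluster at 74.95 CPM in aCXCR2 and 182 CPM in NRS. In the cluster led by Gbp2 and Lipg, which holds interferon-induced genes, it stood at 5.37 CPM in aCXCR2, with an interval that overlaps that of the aCXCR2 photoreceptor-like level of 1.15 CPM, and at 57.8 CPM in NRS. The exception was the Cxcr2 cluster, at 191 CPM in aCXCR2 and 10.96 CPM in NRS, and both rich cells lay in it. Without those 2 cells Ltf stood there at 3.64 CPM (9 UMIs) in aCXCR2 and 10.96 CPM (15 UMIs) in NRS, with intervals that overlap. Ngp in the same cluster stood at 793 CPM in aCXCR2 and 2.19 CPM in NRS, and at 126 CPM in aCXCR2 without the 2 cells. Of the 6 clusters, Ngp was higher in aCXCR2 in 5, and at least 2-fold higher in 4. In the Itpr2 cluster Ngp was lower, at 0.960 CPM in aCXCR2 and 1.39 CPM in NRS. Neither there nor in the Car4 cluster did Ngp differ beyond counting error. Within NRS, Ltf was thus highest in the Itpr2 cluster and lowest in the Cxcr2 cluster, and Retnlg was highest in the Cxcr2 cluster. Cxcr2 itself stood at 38.4 CPM in aCXCR2 and 35.4 CPM in NRS in the Itpr2 cluster, and at 1888 CPM in aCXCR2 and 2762 CPM in NRS in the Cxcr2 cluster.

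Chil3 was uneven across clusters. In NRS, a cluster led by Siglecf and Cd72 held 41.5% of its UMIs at 193 CPM with 5.52% of the cells. That cluster had 20 aCXCR2 cells, too few to compare. Chil3 was lower in aCXCR2 in the Car4 cluster, at 37.8 CPM in aCXCR2 and 138 CPM in NRS, and higher in the Itpr2 cluster, at 28.8 CPM in aCXCR2 and 6.83 CPM in NRS. Without the 2 rich cells, Chil3 in the Cxcr2 cluster stood at 1.21 CPM (3 UMIs) in aCXCR2 and 5.84 CPM (8 UMIs) in NRS, with intervals that overlap.

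**Figure D3:**
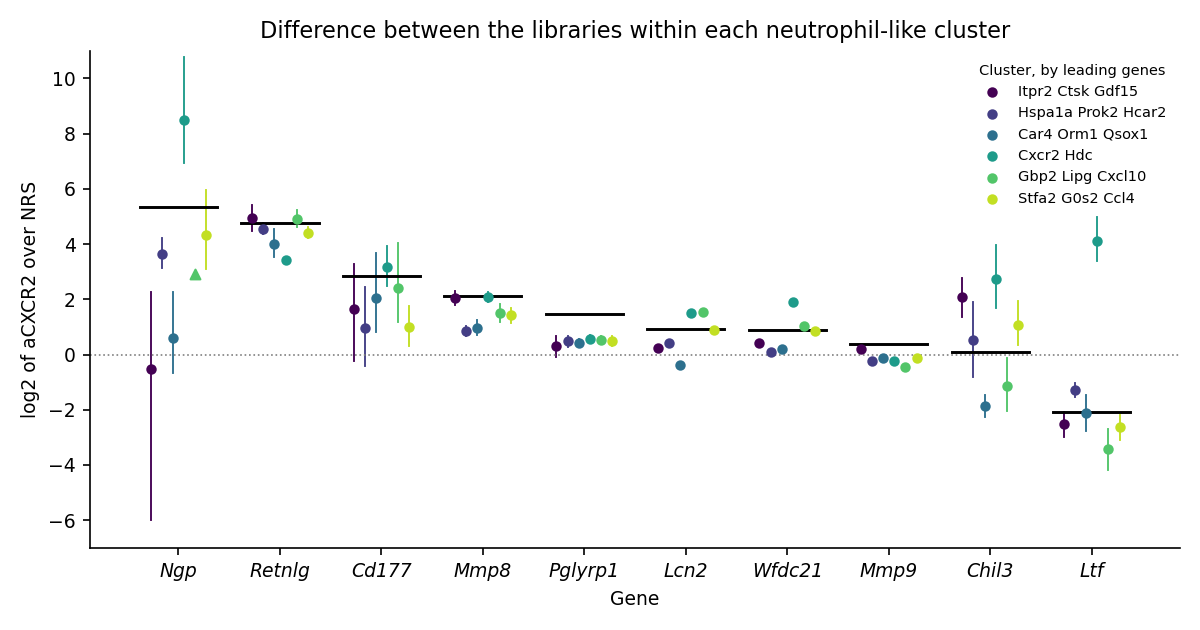
log2 of aCXCR2 over NRS for each gene within the 6 neutrophil-like clusters with at least 50 cells per library (points, with exact conditional intervals) and over all neutrophil-like cells (black bars); the upward triangle is the lower interval bound where NRS had 0 UMIs. Retnlg lies between 3.41 and 4.95 in all 6 clusters, and Ltf, before TMM scaling, lies below -1 in 5 and at 4.12 in the cluster that holds the 2 rich cells.

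Across 15 points of cluster and library with at least 50 cells, the gene whose level ran most like that of Ltf among 4325 genes was Camp (Spearman 0.825), followed by Ptpn2 (0.721), Dnaja2 (0.693), Ube2s (0.657) and Ergic2 (0.643). Ngp and Ltf gave -0.12 over all 15 points, 0.6 within the 6 aCXCR2 points and 0.12 within the 9 NRS points. The genes most like Ngp were Stfa3 (0.879), App (0.845), BC100530 (0.844), Ly6g (0.842) and Stfa2 (0.824), with Mmp8 at 0.781 and Retnlg at 0.776. Points of 1 library share its depth and free RNA, so these values are descriptions. The aCXCR2 point of the Cxcr2 cluster includes the 2 rich cells. Without them Ltf at that point fell from 191 to 3.64 CPM and Camp from 217 to 12.1 CPM. The correlations that use this point are given with those cells only, so they can rest on them. Within the 9 NRS points, Ltf and Camp gave 0.9 and Ltf and Pglyrp1 gave -0.8. These values do not show Ltf and Camp in the same cells. At 1000 UMIs per cell, 18 NRS cells had both, against 16.9 expected from their shares (ratio 1.07, interval 0.63 to 1.68). Summed inside clusters, expectation was 20.5 (ratio interval 0.52 to 1.39). At 2000 UMIs, 52 NRS cells had both, against 40.8 expected (interval 0.95 to 1.67). In aCXCR2, 2 cells against 0.71 expected had both at 1000 UMIs (interval 0.34 to 10.2). At 2000 UMIs, 6 against 1.82 did (1.21 to 7.16).

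Cell by cell, most pairs of the 10 genes had intervals that included the expected number. These are Poisson intervals of the joint count, wide for common genes, so including 1 does not show that a pair is unrelated. In aCXCR2, Wfdc21 was seen in 89.8% (88.5 to 91.0%) of cells with a Lcn2 UMI. In cells without one it was seen in 69.7% (62.8 to 76.0%), yet the interval of this pair included 1 (0.97 to 1.06). At 1000 UMIs per cell, 37 of 45 gene pairs in aCXCR2 and 28 of 45 in NRS were seen together in more cells than the product of their shares gives. Of the 36 pairs without Ltf, the interval lay above 1 for 9 in aCXCR2 and 10 in NRS, and below 1 for 0 in aCXCR2 and 2 in NRS. Of the 9 pairs with Ltf, 3 in aCXCR2 and 3 in NRS were above expectation, and the interval lay above 1 for 1 in each library and below 1 for 1 in aCXCR2 and 3 in NRS. The contrast between the pairs with and without Ltf was not tested. Mmp9 and Pglyrp1 in NRS were seen together in 390 cells, against 267 expected, and Retnlg and Mmp8 in NRS in 37, against 14.3 expected. In aCXCR2, Ngp and Retnlg were seen together in 80 cells, against 50.8 expected, and Mmp8 and Mmp9 in 444, against 355 expected. Lcn2 and Wfdc21, the most abundant pair, had a per-cell Spearman correlation of 0.268 in aCXCR2 and 0.450 in NRS. Those of Ltf with any other gene lay between -0.06 and 0.06 in aCXCR2 and between -0.08 and 0.07 in NRS, too weak to read in counts this sparse.

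Ltf and Retnlg in NRS were the pair furthest below expectation among those with at least 5 cells expected, seen together in 4 cells against 23.3 expected (ratio 0.172, interval 0.05 to 0.44). Ltf and Mmp9 in NRS were seen together in 126 cells, against 164 expected, and Ltf and Pglyrp1 in 53, against 71.0 expected. In aCXCR2, Ltf and Pglyrp1 were seen together in 12 cells, against 21.7 expected. Ltf and Lcn2 in NRS were seen together in 325 cells, against 289 expected (ratio 1.13, interval 1.01 to 1.26). Ltf and Ngp in aCXCR2 were seen together in 6 cells, against 1.93 expected (ratio 3.11), but at 2000 UMIs per cell in 5 against 4.83 expected (ratio 1.03, interval 0.34 to 2.41). When expectation was instead summed inside clusters, none of the 9 Ltf pairs in either library had an interval that left out 1, where 2 in aCXCR2 and 4 in NRS had done so over all cells. Of the 36 pairs without Ltf, 4 in aCXCR2 and 3 in NRS then had an interval above 1 and 0 in either library an interval below 1. Mmp9 and Pglyrp1 in NRS then had 374 cells expected (ratio 1.04, interval 0.94 to 1.15). Retnlg and Mmp8 in NRS had 26.3 expected (ratio 1.41, interval 0.99 to 1.94). In aCXCR2, the intervals of Ngp with Retnlg (1.08 to 1.69) and Mmp8 with Mmp9 (1.05 to 1.27) stayed above 1. Ltf and Retnlg in NRS then had 9.15 cells expected (ratio 0.437, interval 0.12 to 1.12), and Ltf and Pglyrp1 had 50.9 expected. These intervals treat the expected number as fixed and are wide for common genes. One that includes 1 therefore does not show that a pair is unrelated inside clusters.

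**Figure D4:**
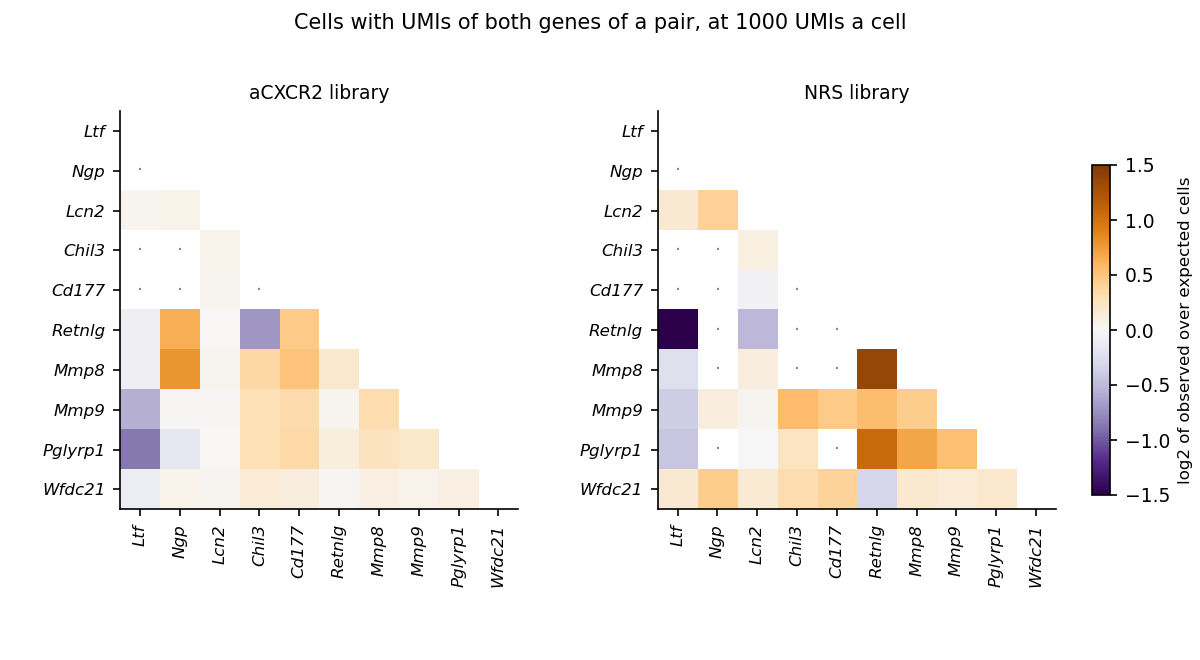
log2 of observed over expected numbers of neutrophil-like cells with UMIs of both genes, at 1000 UMIs per cell, aCXCR2 left and NRS right; dots mark pairs with under 5 cells expected. With expectation taken over all cells, Ltf with Retnlg in NRS is the darkest below-expectation square (4 cells against 23.3). Retnlg with Mmp8 in NRS lies well above (37 against 14.3). With expectation summed inside clusters, the interval of neither pair left out 1.

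Ltf was also set against the summed UMIs of the other genes. Among NRS cells with 0 to 4 UMIs of the other 9, Ltf was seen in 9.97% (interval 8.31 to 11.8%), and among those with 40 or more in 13.9% (9.29 to 19.7%), so the intervals overlap. Counting the 7 genes other than Lcn2 and Wfdc21, a choice made after seeing the data, Ltf was seen in 14.4% (12.7 to 16.3%) of NRS cells with 0 UMIs and in 4.94% (1.36 to 12.2%, 81 cells) of those with 8 or more. The NRS bins between gave 9.36%, 9.59% and 7.73%. In aCXCR2 the shares were 3.29% (1.66 to 5.82%) of cells with 0 UMIs and 1.13% (0.456 to 2.32%) of cells with 8 or more, with overlapping intervals. In NRS, Ltf was seen with Lcn2 more often than expected over all cells (ratio 1.13). With Wfdc21 the ratio was 1.12, with an interval that included 1 (0.99 to 1.26). Inside clusters both intervals included 1 (0.97 to 1.22 and 0.96 to 1.23). Leaving out these genes after seeing the data can by itself favour lower shares at higher counts. No relation of Ltf to the other genes is therefore read from these bins.

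**Figure D5:**
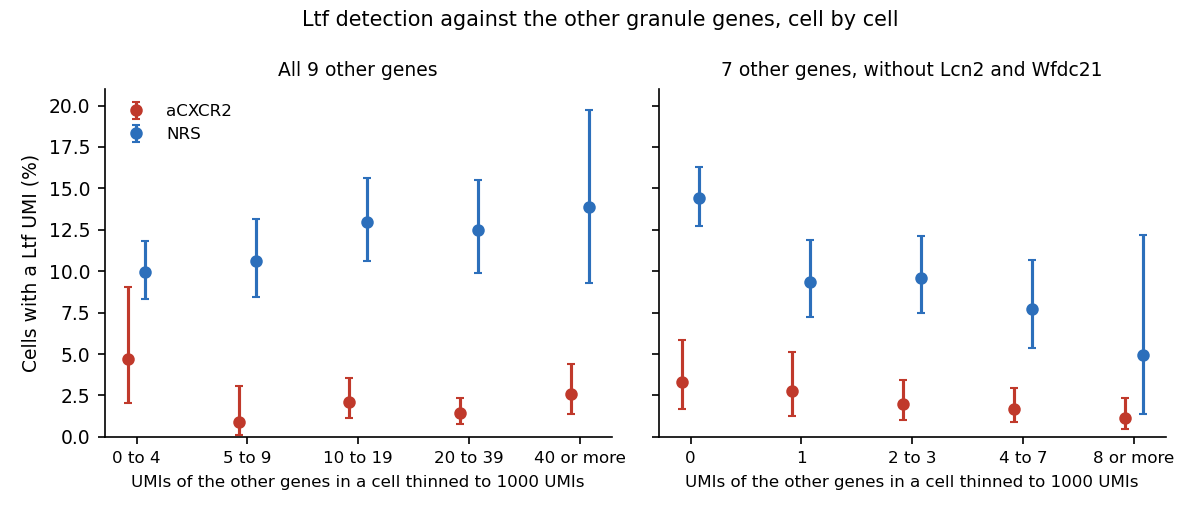
Share of neutrophil-like cells with a Ltf UMI (%, y axis, with exact binomial intervals) by the UMIs of all 9 other genes (left panel) or of 7 without Lcn2 and Wfdc21 (right panel), at 1000 UMIs per cell, aCXCR2 drawn left of NRS. NRS cells run between 9.97% and 13.9% on the left, and lie at 14.4% with 0 UMIs and 4.94% with 8 or more on the right.

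Cells other than neutrophils also carried some of these genes. In the 4 macrophage-scoring clusters (1767 aCXCR2 and 608 NRS cells), Chil3 stood at 68.3 CPM in aCXCR2 and 33.6 CPM in NRS, above its neutrophil-like level in both libraries. Mmp9 stood there at 487 CPM in aCXCR2 and 847 CPM in NRS, and Mmp8 at 42.0 CPM in aCXCR2 and 85.1 CPM in NRS, although these 4 clusters held very different shares of the class in each library. Inside them Mmp9 was lower under aCXCR2 in 4 of 4, with log2 ratios from -2.70 to -0.25. The -2.70 came from the cluster led by S100a4 and Ccr2, which had 48 NRS cells, under the minimum used for neutrophil-like clusters. In the others Mmp9 ran from -1.28 to -0.25. Of the 4 clusters, Mmp8 was lower in 2, at -0.97 and -0.49, and in the other 2 its interval spanned 0. Chil3 was higher in 3 of the 4 clusters, with log2 ratios from 0.63 to 4.07. It was lower in the S100a4 cluster, at 118 CPM in aCXCR2 and 216 CPM in NRS, again with 48 NRS cells. No share over all genes is given for these clusters, so the directions are not read as particular to these genes. Summed over the 4 clusters, Ltf stood at 0.790 CPM in aCXCR2 and 2.56 CPM in NRS, no higher than in photoreceptor-like cells. A cluster led by Plet1, Psca and Krt13 (28 aCXCR2 and 144 NRS cells), left unnamed, held 2 aCXCR2 cells with 283 and 282 Ltf UMIs. The same cells had 635 and 895 Pglyrp1 UMIs, 151 and 1206 Krt13 UMIs, and 0 Ngp and 0 Camp UMIs. Their barcodes also occurred in the NRS library. Ltf in the aCXCR2 library was therefore not held by neutrophil-like cells alone.

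Other granule and related genes came from lists of known members. Among 7357 genes with at least 10 CPM in either library, 6.58% were over 1.5-fold higher and 51.9% over 1.5-fold lower. These shares were 23.3% higher and 13.4% lower after TMM scaling, and 8.93% higher and 43.7% lower at a 50 CPM minimum. Other specific granule genes with that level numbered 10, of which 3 passed 1.5-fold upward and 0 downward, with a median log2 ratio of 0.22. Haptoglobin (Hp), which binds free haemoglobin, stood at 3331 CPM in aCXCR2 and 1180 CPM in NRS neutrophil-like cells. Camp had the lowest log2 ratio of these genes, at -0.57, and it turned to 0.15 after TMM scaling. Of 6 other gelatinase granule genes, 4 passed 1.5-fold upward and 0 downward (median 0.76), with the membrane protease Mmp25 at 11.1 CPM in aCXCR2 and 3.88 CPM in NRS.

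Of 10 azurophil genes listed, 4 had at least 10 CPM. Of these, 1 passed 1.5-fold upward and 3 downward, beside 6.58% and 51.9% of all genes. After TMM scaling 1 was higher and 2 were lower, beside 23.3% and 13.4% of all genes. The rest of the list, Mpo and Elane included, stayed under 10 CPM, so the count does not cover them. Cd63, a granule and lysosome membrane protein, stood at 411 CPM in aCXCR2 and 1420 CPM in NRS neutrophil-like cells, and Ctsc, which activates serine proteases, at 189 CPM in aCXCR2 and 74.8 CPM in NRS. Mpo, myeloperoxidase, had 2 UMIs in each library. Of 6 regulators, 0 passed 1.5-fold upward and 2 downward. Cebpe, a factor needed for specific granule genes, stood at 20.5 CPM in aCXCR2 and 49.7 CPM in NRS neutrophil-like cells, a log2 ratio of -1.28 that stayed negative after TMM scaling, at -0.56. Ltf and Cebpe were thus both lower under aCXCR2, and Ngp was higher. Over the 15 points, Cebpe had a Spearman correlation of 0.375 with Ltf, which was -0.14 within the 6 aCXCR2 points and 0.4 within the 9 NRS points. With Ngp it was -0.80 over all points, -0.77 within aCXCR2 and -0.52 within NRS. The values that use aCXCR2 points again include the 2 rich cells.

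Of 11 exocytosis genes, 2 were over 1.5-fold higher and 1 over 1.5-fold lower, with Stx3, a membrane fusion protein, at 9.08 CPM in aCXCR2 and 48.3 CPM in NRS neutrophil-like cells. Of 4 partners and inhibitors measured, 2 were over 1.5-fold higher and 1 lower. Pecam1, an adhesion protein that binds CD177, stood at 14.0 CPM in aCXCR2 and 3.48 CPM in NRS neutrophil-like cells, and Timp1, the inhibitor of MMP9, at 4.15 CPM in aCXCR2 and 2.97 CPM in NRS. A list of 6 stress-type genes had been picked from these libraries, so that all 6 were over 1.5-fold lower supports nothing. Ctsk, Gdf15 and Tnni2 of this list were among the leading genes of the Itpr2 cluster. Bhlhe41, a transcriptional repressor with the lowest log2 ratio of the list, had 98 UMIs in aCXCR2 and 798 UMIs in NRS neutrophil-like cells, a log2 ratio of -3.44. Gpnmb, a transmembrane glycoprotein with the highest, stood at 76.9 CPM in aCXCR2 and 366 CPM in NRS.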

How the data were processed

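Single-cell libraries were made with the 10x 3′ kit, per the labels' protocols. The authors deposited raw UMI counts as whole numbers, one matrix per library. Cell Ranger and Seurat are named in the submitters' processing notes with no version, and software version 3.0.0 stands in the headers. The sources used here give no mouse build. The 10 genes, the gene lists and the markers were chosen with earlier results of these data known.

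Barcodes were filtered as stated above. Counting ambiguity between near-identical copies was not resolvable, and the intervals cover counting error only. Scrublet called 4 aCXCR2 cells and 0 NRS cells, so it has not worked and doublets remain. Cells were clustered with Leiden (scanpy 1.11.5, leidenalg 0.10.2, resolution 1, 30 components, 1987 variable genes without granule genes) and clusters were named from marker scores. The naming rule was set after seeing the clusters. A cluster stayed unnamed with under 20 cells, under 3 detected markers, leading genes of another class, a close second class, or low depth with no marker among its leading genes. Erythroid scores were left out of the best and second class. Named neutrophil-like, the Hspa1a cluster had an erythroid score of 2.103 beside a neutrophil score of 1.873, and the Car4 cluster 1.389 beside 1.948. UMIs were summed per library and cell class. A gene counted as changed past 2-fold, or 1.5-fold for gene lists. No test was run, since each group has 1 library. Ratios have exact conditional intervals, levels exact Poisson intervals, and shares Clopper-Pearson intervals. Scaling by TMM used edgeR 4.0.16 (R 4.3.3), without a count test. The ratio and co-detection steps were tested on simulated data.

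All 10 genes are named. From each other list up to 4 genes at the ends of the range of ratios may be named, with Camp, Mpo, Cebpe and Timp1 whatever their values. Alternatives covered the cell filter, doublets, clustering, scaling, weighting, free RNA and depth.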

Additional observations from a re-analysis of the deposited data

Results flagged for a closer look

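The difference between the libraries ran both ways beyond counting error across neutrophil-like clusters for 4 genes, and that contrast between clusters was not tested. Ngp also had a negative log2 ratio in the Itpr2 cluster, -0.54, with a wide interval (-5.98 to 2.27). Ltf had log2 ratios of 4.12 in the cluster led by Cxcr2 and Hdc, which holds the 2 rich cells, and -3.43 in the Gbp2 cluster. Lcn2 had 1.54 in the Gbp2 cluster and -0.39 in the Car4 cluster. Chil3 had 2.72 in the Cxcr2 cluster and -1.87 in the Car4 cluster. Without the 2 rich cells, Ltf in the Cxcr2 cluster stood at 3.64 CPM in aCXCR2 and 10.96 CPM in NRS, and Chil3 at 1.21 CPM in aCXCR2 and 5.84 CPM in NRS, so the direction of both turned, with intervals that overlap. Mmp9 had 0.20 in the Itpr2 cluster and -0.45 in the Gbp2 cluster.

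The barcodes that failed the cell filter, 725 in the aCXCR2 library and 1659 in the NRS library, were used in no comparison. In them 9 of the 10 genes stood higher in aCXCR2 beyond counting error, as did 17.4% of 13590 genes with at least 1 CPM in either library, while 40.5% stood lower. Retnlg stood at 580 CPM in aCXCR2 and 7.01 CPM in NRS, Ngp at 6.86 CPM in aCXCR2 and 0.361 CPM in NRS, Cd177 at 14.2 CPM in aCXCR2 and 1.01 CPM in NRS, and Mmp8 at 82.3 CPM in aCXCR2 and 11.8 CPM in NRS. Lcn2 stood at 3194 CPM in aCXCR2 and 1099 CPM in NRS, Wfdc21 at 1107 CPM in aCXCR2 and 262 CPM in NRS, Mmp9 at 434 CPM in aCXCR2 and 103 CPM in NRS, Pglyrp1 at 141 CPM in aCXCR2 and 44.7 CPM in NRS, and Chil3 at 11.9 CPM in aCXCR2 and 2.10 CPM in NRS. Ltf was the exception, at 16.3 CPM in aCXCR2 and 16.1 CPM in NRS.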

How the results depend on the processing

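Each gene's log2 ratio was recomputed under 18 alternatives. Of 180 values, 173 kept their direction. The ranges were -3.10 to -0.92 for Ltf, 3.97 to 6.97 for Ngp and 3.82 to 5.92 for Retnlg. Chil3 turned negative under the strict cell filter (-0.14), without the cluster richest in it (-0.018), without the Itpr2 Ctsk Gdf15 cluster (-0.51), without the 2 rich cells (-0.16), without the Hspa1a and Car4 clusters (-0.072) and with shared clusters weighted alike (-0.32), and Mmp9 under the last (-0.19). Genes at least 2-fold higher numbered 8 of the 10 with the per-cell gate, TMM factors or median of ratios. With shared clusters weighted alike, 0 were at least 2-fold lower. Of all genes, those at least 2-fold higher and lower numbered 508 and 75 with TMM, 512 and 74 with median of ratios, 202 and 357 with totals that omit the 10 genes, S100a8 and S100a9, 62 and 276 without the Itpr2 cluster, 174 and 1165 without the Hspa1a and Car4 clusters, 225 and 1956 at a 10 CPM minimum, and 394 and 4055 at 1 CPM. The regulator list's median turned to 0.68 with TMM and 0.45 at 50 CPM. Genes of the other lists over 1.5-fold higher numbered 12 of 47, beside 6.58% of all genes, and 29 of 47 with TMM, beside 23.3%. Those lower numbered 13 of 47, beside 51.9% of all genes, and 7 of 36 at 50 CPM, beside 43.7%. These counts include the stress-type genes picked from these libraries, 6 of the 13 lower and 4 of the 7 at 50 CPM. Nothing is therefore read from the pooled counts. The causes were not tested. Omission of shared barcodes, the Itpr2, Hspa1a and Car4 clusters or the rich cells, equal cluster weights and the 7-gene count were chosen after seeing the data. No paired analysis was possible because each group has 1 library, and leaving out a library was not possible for the same reason. With 1 library per group, treatment and library cannot be told apart, and genes near 1 UMI per cell are limited by depth.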
